A study of Homo sapiens with 15 samples.

Results

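RNA levels of 55 genes of the Wnt pathway were followed in HCC95 cells in which a transcription factor of squamous cells had been knocked down. The genes were those of the 61544 in the deposited count table whose symbols name the Wnt ligands, the Frizzled (FZD) receptors, the co-receptors LRP5, LRP6, ROR1 and ROR2, the secreted inhibitors of the DKK and SFRP families, the R-spondin receptors LGR4 to LGR6, the E3 ligases RNF43 and ZNRF3, the intracellular regulators AXIN1, AXIN2, NKD1 and NKD2, the acyltransferase PORCN, or the nuclear factors LEF1, TCF7, TCF7L1 and TCF7L2. The rule used symbols alone, although the gene set was proposed with earlier results of these data known. HCC95 is an established human cell line of lung squamous cell carcinoma (LUSC). Cells were transfected with an siRNA against TP63 (siTP63b), SOX2 (siSOX2b), KLF5 (siKLF5b) or GRHL2 (siGRHL2a), or with the negative control siRNA siNC1, and each of the 5 groups had 3 libraries. All groups were thus the same line carrying an siRNA, each factor was targeted by a single siRNA, and the labels do not say whether replicates were separate cultures, so p-values measure only the spread between these libraries. Polyadenylated RNA was reverse-transcribed with random hexamers and sequenced as paired-end reads.

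Wnt ligands are secreted lipid-modified proteins. PORCN adds the lipid, FZD proteins bind the ligand together with LRP5 or LRP6, and signalling then stabilises beta-catenin, which acts with the TCF and LEF factors in the nucleus. ROR1 and ROR2 serve branches that do not use beta-catenin. Brakes act at each level: SFRP and DKK proteins outside the cell, RNF43 and ZNRF3 on FZD turnover unless R-spondin and an LGR receptor restrain them, and AXIN proteins in the complex that degrades beta-catenin. AXIN2, LEF1, NKD1, LGR5, RNF43 and ZNRF3 are known in many tissues as targets of the pathway that feed back on it.

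Libraries of siNC1 and siKLF5b held 15655495 to 24845273 counts and those of siTP63b, siSOX2b and siGRHL2a held 22255856 to 34229063. The names of the columns part the libraries in the same manner, and 66.1% to 69% of counts between 20 and 500 were even numbers in these 9 libraries against 49.7% to 50.7% in the 6 others. The column set and the knockdown cannot be told apart between the sets, so siKLF5b was compared with siNC1, and siTP63b, siSOX2b and siGRHL2a were compared with each other. These last 3 comparisons share libraries and have no untreated or negative control in their set. A member was taken as higher or lower, that is as a DEG, when the adjusted p was below 0.05 and the absolute log2FC above 0.75 in a fit of all genes. Levels are CPM, the counts scaled to library size with TMM factors, given as mean ± SD of 3 libraries. Every adjusted p comes from the quasi-likelihood test of edgeR, adjusted over 25108 genes by the method of Benjamini and Hochberg.

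RNA of the targeted genes was measured first. The paper reports Western blots of their proteins after siRNA transfection, and RNA levels do not measure protein. TP63 had 363 CPM in siTP63b against 690.0 in siSOX2b and 831 in siGRHL2a (log2FC -0.93 and -1.19). SOX2 had 8.97 CPM in siSOX2b against 29.5 in siTP63b and 20.2 in siGRHL2a. KLF5 had 72.5 CPM in siKLF5b against 113 in siNC1 (log2FC -0.64, adjusted p = 5.3e-10). SOX2 was higher in siKLF5b, with 107 CPM against 73.3 in siNC1 (log2FC 0.54, adjusted p = 3.7e-06). In that comparison TP63 and GRHL2 had log2FC of -0.13 and 0.059 (adjusted p = 0.0666 and 0.414). Of the targeted genes in their own knockdowns, GRHL2 differed least, with 91.3 CPM in siGRHL2a, 100.2 in siSOX2b and 117 in siTP63b. Its log2FC for siSOX2b against siGRHL2a was 0.14 (adjusted p = 0.0313). This last difference missed the adjusted p of 0.05 without siSOX2b replicate 1 (log2FC 0.11, adjusted p = 0.114), without siGRHL2a replicate 1 (adjusted p = 0.0588) and without siGRHL2a replicate 2 (adjusted p = 0.0533). All 8 squamous markers were detected, with KRT5 highest and summed levels of 6036 to 12239.9 CPM, while the markers of adenocarcinoma, fibroblasts, endothelium and leukocytes summed to at most 11.2, 10, 15 and 39.8 CPM. The squamous sum was 6036 to 7053 CPM in siKLF5b, 9936 to 11457 in siNC1, 6435 to 7538 in siTP63b, 9319.6 to 10314 in siSOX2b and 11874 to 12239.9 in siGRHL2a, and its part in the results was not tested. In bulk RNA, fewer cells that express a gene and less RNA per cell cannot be told apart.

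Of the 55 genes, 48 had enough counts to be tested. The other 7 were FZD9, LGR6, WNT1, WNT8A, WNT9B, DKK4 and SFRP2, whose highest counts in any library were 10, 16, 1, 1, 6, 5 and 3. The tested genes were 16 of 19 ligands, 9 of 10 FZD receptors, 2 of 3 LGR receptors, 6 of 8 secreted inhibitors and all 15 genes of the other classes.

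A few ligand and receptor genes held most of the counts of their class. Levels were divided by the length of exon, which puts genes on 1 scale only roughly, because reads in introns and in overlapping genes were counted too. Genes overlapping WNT5A and FZD6 had 0.905% and 3.94% as many counts, and none overlap WNT7B or FZD1, but for WNT2B and FZD4 the overlapping genes had 400% and 3.53e+03%. On this scale WNT5A, a ligand best known for signalling without beta-catenin, held 62.9% of the summed ligand level in siNC1 and 60.8% in siKLF5b. The WNT5A share was 44% in siTP63b, 35.6% in siSOX2b and 32.9% in siGRHL2a. WNT7B was next with 10.4%, 12.8%, 22.8%, 22.8% and 23.5% in the same order of groups. Among receptors FZD6 held 77.1%, 75.1%, 69.6%, 72.3% and 66.3%. FZD1 held 6.07% of the receptor level in siNC1, 8.88% in siKLF5b, 10.8% in siTP63b, 10.1% in siSOX2b and 18.4% in siGRHL2a. The summed ligand level lay between 63.5 and 73.9 CPM per kilobase over the 5 group means and the summed FZD level between 64.5 and 75.3. These shares are a description with no test, and most of the difference in WNT5A and WNT7B lay between the column sets, where set and knockdown cannot be told apart.

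**Figure D1:**
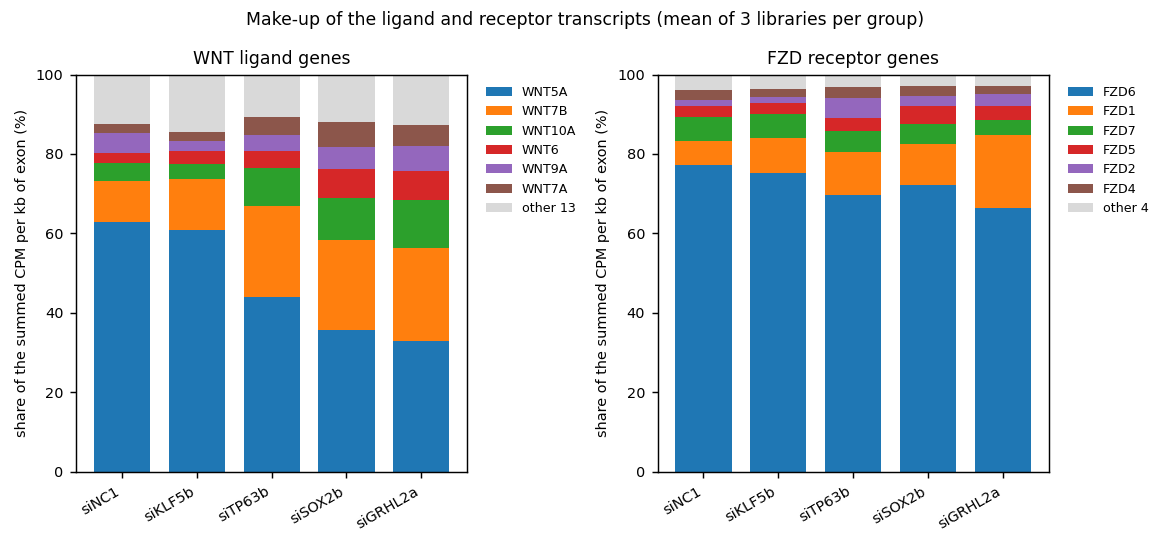
Stacked bars of the percentage of summed CPM per kilobase of exon held by each ligand (first panel) and each FZD receptor (second panel), as means of 3 libraries in each of the 5 groups. WNT5A fills 62.9% of the ligand bar in siNC1 and 32.9% in siGRHL2a, and FZD6 fills most of every receptor bar.

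Promoter sequences are shown for FZD1, ROR1 and WNT9A, because FZD1 was the FZD gene lower in both siTP63b and siSOX2b than in siGRHL2a at both thresholds, ROR1 went the other way, and WNT9A had the lowest adjusted p of the 2 members that were DEGs in siKLF5b. The sequences are from RefSeq on GRCh38.p14, run 5′ to 3′ on the strand of the gene, and hold 250 bases before the start and 10 after it. FZD1 is at chr7:91264183-91264442 (plus strand), ROR1 at chr1:63773767-63774026 (plus strand) and WNT9A at chr1:227947923-227948182 (minus strand). Capitals mark letters of a searched motif.
FZD1: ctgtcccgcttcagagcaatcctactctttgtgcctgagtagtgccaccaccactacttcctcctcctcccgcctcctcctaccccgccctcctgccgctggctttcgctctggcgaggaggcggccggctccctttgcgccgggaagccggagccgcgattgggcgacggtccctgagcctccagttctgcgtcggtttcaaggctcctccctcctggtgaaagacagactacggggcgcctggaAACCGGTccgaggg
ROR1: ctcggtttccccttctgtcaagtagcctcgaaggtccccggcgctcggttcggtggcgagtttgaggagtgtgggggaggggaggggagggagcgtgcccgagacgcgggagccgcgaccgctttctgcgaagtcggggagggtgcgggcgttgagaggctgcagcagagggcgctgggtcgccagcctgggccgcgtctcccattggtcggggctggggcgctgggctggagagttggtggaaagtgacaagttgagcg
WNT9A: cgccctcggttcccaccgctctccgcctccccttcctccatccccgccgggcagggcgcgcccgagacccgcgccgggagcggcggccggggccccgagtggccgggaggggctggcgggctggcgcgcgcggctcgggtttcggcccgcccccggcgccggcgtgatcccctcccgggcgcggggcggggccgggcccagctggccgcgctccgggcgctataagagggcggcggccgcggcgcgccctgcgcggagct

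RefSeq promoters were found for 38 of the 55 genes and were searched on both strands from 250 bases before to 50 after the start. The GRHL letters ACCGGTT were in 1 of the 38, that of FZD1, where they lie on the opposite strand and begin 4 bases before the start, and in 0.787% of 27305 promoters. The KLF letters GGGNGTG were in 14 of the 38 (36.8%) and in 29.2% of all promoters, and not in that of WNT9A. The SOX letters ACAATNG were in 1 of the 38, that of WNT1, and in 7.11% of all. The TCF/LEF letters CTTTGAT and the p63 letters ACATGT were in 0 of the 38 and in 2.64% and 4.26% of all. These are descriptions of letters in a window and not binding sites.

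The question put to the first comparison was which Wnt genes differed after knockdown of KLF5. In siKLF5b, 2 of the 48 tested genes were lower than in siNC1 and 0 were higher (4.17% in all), where 3.26% of all genes tested were DEGs, 1.37% lower and 1.89% higher. The genes were the ligand gene WNT9A and the feedback inhibitor gene NKD1, whose product binds Dishevelled. For the count of 0, DESeq2 also called 0 higher, and 20 of the 48 genes had an unadjusted p below 0.05 in either direction. The count of higher members was 1 without siKLF5b replicate 1, when LGR5 passed (log2FC 0.78), and that of lower members was 3 without siNC1 replicate 1, when ROR1 passed (log2FC -0.77).

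WNT9A (ENSG00000143816.8, chromosome 1 of hg38 from 227918656 to 227947932, minus strand) had 13.8, 14.4 and 14.7 CPM in siNC1 and 6.22, 7.11 and 5.28 CPM in siKLF5b. All siKLF5b libraries lay below all siNC1 libraries. Its log2FC was -1.19 (standard error 0.11, adjusted p = 1.7e-09), which is a level 2.28-fold lower. NKD1 (ENSG00000140807.7, chromosome 16 from 50548396 to 50649249, plus strand) had 1.99, 2.58 and 2.31 CPM in siNC1 and 1.01, 0.863 and 1.40 CPM in siKLF5b. These groups did not overlap either, although NKD1 rested on a mean of 35.3 counts. Its log2FC was -1.10 (standard error 0.30, adjusted p = 0.00596).

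Smaller differences were more frequent. At an adjusted p below 0.05 with no limit on size, 4 members were higher and 9 lower in siKLF5b (27.1% of 48). Of all genes tested 23.2% passed, 10.3% higher and 12.9% lower. The secreted inhibitor SFRP1, which binds Wnt ligands, had 89.6 ± 1.29 CPM in siNC1 and 57.6 ± 2.58 in siKLF5b (log2FC -0.64, standard error 0.053, adjusted p = 1.1e-10). SFRP4 had 37.1 ± 2.40 and 55.0 ± 1.69 CPM (log2FC 0.57, adjusted p = 5.6e-08). The overlapping gene EPDR1 had 98.9% as many counts as SFRP4 and the same log2FC of 0.57, so the SFRP4 value cannot be told apart from that of EPDR1. Among receptors FZD1 had a log2FC of 0.44 (adjusted p = 6.0e-05) and FZD4 one of -0.52 (adjusted p = 8.9e-04), but the gene PRSS23, which overlaps FZD4, had 3.53e+03% as many counts and a log2FC of -0.31. The nuclear factor gene TCF7L1, whose product is a TCF that often acts as a repressor, had a log2FC of 0.39 (adjusted p = 0.00193) and LEF1 one of 0.22 (adjusted p = 0.037). Of the most abundant ligand genes, WNT5A had a log2FC of -0.24 (adjusted p = 3.1e-04), WNT10A one of -0.40 (adjusted p = 0.011) and WNT7B one of 0.11 (adjusted p = 0.272). FZD6 had a log2FC of -0.15 (standard error 0.049, adjusted p = 0.0259), DKK3 one of -0.20 (adjusted p = 0.00851) and LRP5 one of -0.17 (adjusted p = 0.0403). Of the other members followed in every comparison, these had an adjusted p above 0.05: LGR4 -0.060, LGR5 0.59, RNF43 -0.11, ZNRF3 0.16, TCF7 -0.47, TCF7L2 -0.028, PORCN -0.22 and FZD3 -0.11 as log2FC.

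**Figure D2:**
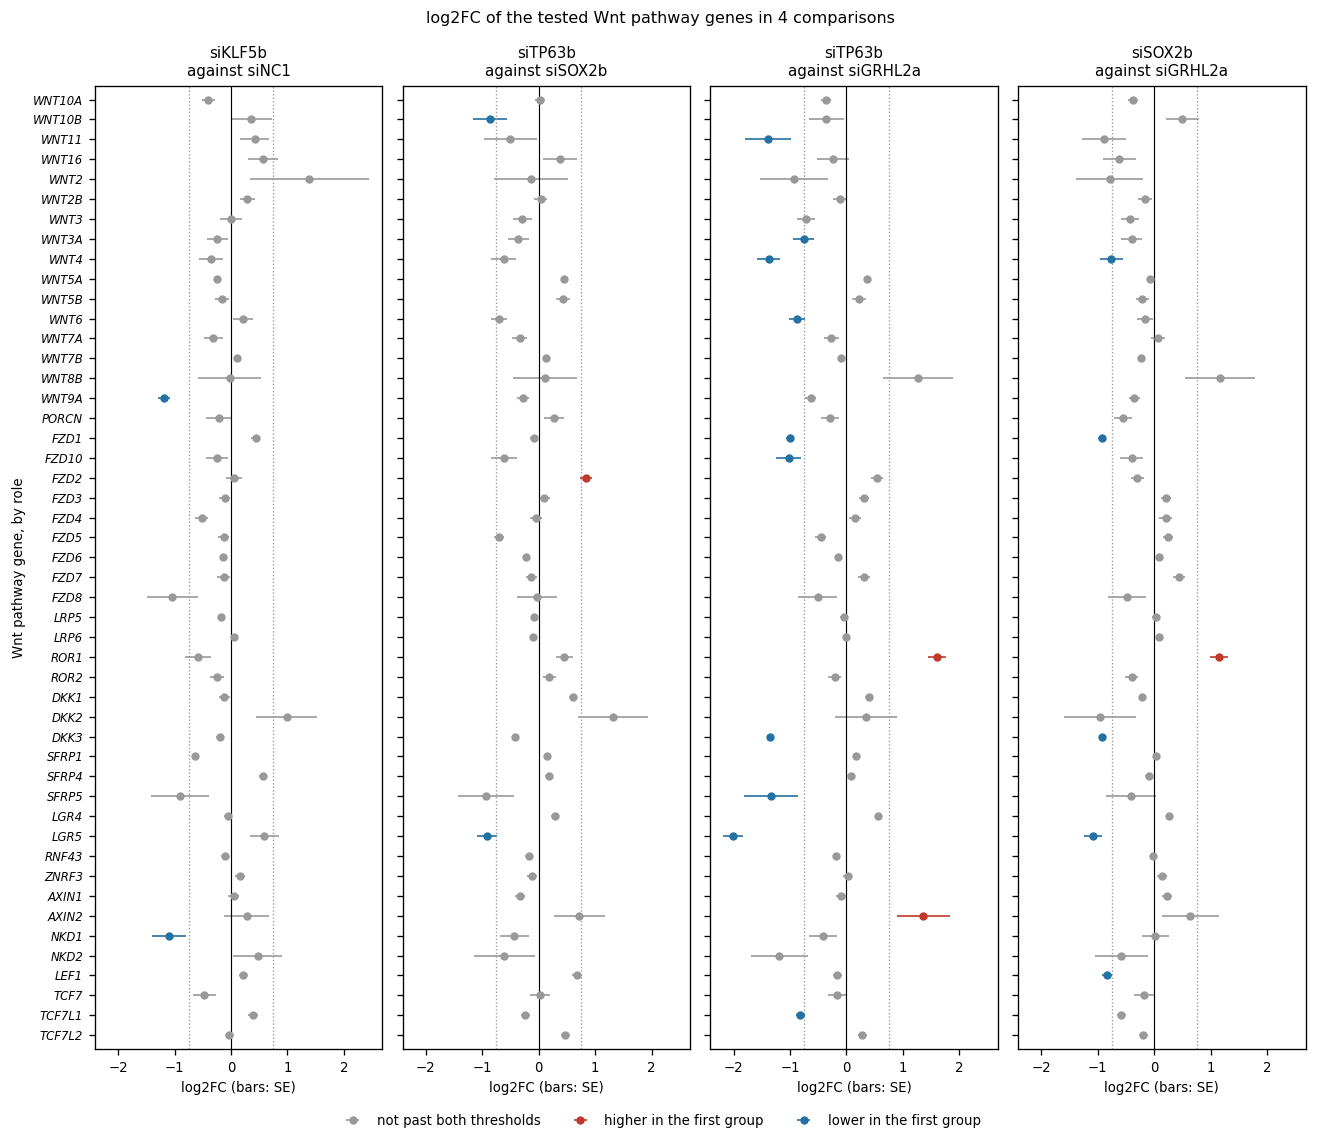
Log2FC (x axis) of the 48 tested Wnt genes (y axis, by role) in the 4 comparisons, a panel each, with the standard error as a bar, dotted lines at the log2FC threshold of 0.75, and coloured points for genes past both thresholds. WNT9A and NKD1 are the coloured points in siKLF5b against siNC1, and 12 points, 10 of them lower, are coloured in siTP63b against siGRHL2a.

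Within the other column set, more members passed both thresholds in the 2 comparisons with siGRHL2a than between siTP63b and siSOX2b, whereas with no limit on size siSOX2b against siGRHL2a had the fewest. Against siGRHL2a, siTP63b had 10 members lower and 2 higher (25% of 48), where 5.39% of all genes were DEGs, 3.21% lower and 2.18% higher. In siSOX2b, 5 members were lower and 1 higher than in siGRHL2a (12.5%), where 3.32% of all genes were DEGs, 2.27% lower and 1.05% higher. Between siTP63b and siSOX2b, 1 member was higher and 2 lower in siTP63b (6.25%), where 6.70% of all genes were DEGs, 3.88% higher and 2.82% lower. With no limit on size these counts were 10 higher and 16 lower for siTP63b against siGRHL2a (13.6% and 13.4% of all genes), 5 and 13 for siSOX2b against siGRHL2a (11.8% and 12.7%), and 10 and 12 for siTP63b against siSOX2b (16.4% and 15.4%). The median log2FC of the members was -0.17, -0.20 and -0.078 in these 3 comparisons and -0.11 for siKLF5b against siNC1, and the medians over all genes tested were -0.0090, -0.018, 0.00059 and -0.0097. The count of 10 lower members in siTP63b against siGRHL2a became 6 without siTP63b replicate 2, when TCF7L1, WNT3A, SFRP5 and WNT11 missed a threshold. That of 2 higher became 1 without siTP63b replicate 1, siTP63b replicate 3 or siGRHL2a replicate 2, each time through AXIN2. For siSOX2b against siGRHL2a the count of 1 higher became 2 without siGRHL2a replicate 3, when WNT8B passed (log2FC 2.79). For siTP63b against siSOX2b the count of 2 lower was 1 without siTP63b replicate 2 or siSOX2b replicate 3. It was 5 without siTP63b replicate 3, when FZD5, NKD1 and WNT4 passed. The count of 1 higher was 0 without siTP63b replicate 3 and 2 without siSOX2b replicate 1, when DKK2 passed (log2FC 3.17). These WNT8B and DKK2 values rest on few counts, with 0 and 4 for WNT8B in the siGRHL2a libraries left and 0 and 3 for DKK2 in those of siSOX2b.

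Ligand genes were lower in siTP63b than in siGRHL2a in 4 of 16 tested cases and higher in 0, where 3.21% of all genes tested were lower and 2.18% higher. The count of 4 became 2 without siTP63b replicate 2, when WNT3A and WNT11 missed a threshold. WNT4, a ligand of epithelial and gonadal development (ENSG00000162552.15, chromosome 1 from 22117313 to 22143969, minus strand), had 1.83, 1.97 and 2.92 CPM in siTP63b, 4.68, 1.88 and 3.80 in siSOX2b and 6.32, 5.70 and 5.44 in siGRHL2a. Every siGRHL2a library lay above the 6 others, and siTP63b and siSOX2b overlapped. The log2FC was -1.38 for siTP63b against siGRHL2a (standard error 0.21, adjusted p = 5.4e-06) and -0.76 for siSOX2b against siGRHL2a (standard error 0.20, adjusted p = 0.00471). The second value rested on siSOX2b replicate 2, without which it was -0.44 (adjusted p = 0.0718), and it was -0.69 without siGRHL2a replicate 1, below the size required. A gene that overlaps WNT4 on the other strand, ENSG00000285873, had 14.2% as many counts and log2FC of -1.43 and -1.06.

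WNT6, expressed in epithelia, had 5.25, 4.86 and 4.63 CPM in siTP63b, 7.25, 8.85 and 7.87 in siSOX2b and 9.40, 8.02 and 9.64 in siGRHL2a. The siTP63b libraries were below all others, and no listed gene overlaps WNT6. Its log2FC was -0.87 against siGRHL2a (standard error 0.14, adjusted p = 1.5e-05) and -0.70 against siSOX2b (adjusted p = 3.0e-04), the latter below the size required of a DEG but past it without siSOX2b replicate 1 (-0.77) or siTP63b replicate 1 (-0.76). WNT3A, a ligand widely used to activate beta-catenin, had 3.0, 1.73 and 3.13 CPM in siTP63b and 4.29, 4.94 and 4.07 in siGRHL2a. Its log2FC of -0.76 (standard error 0.18, adjusted p = 0.00208) was at the edge of the threshold and became -0.52 without siTP63b replicate 2 and -0.67 without siGRHL2a replicate 2. WNT11 had 0.587, 0.0680 and 0.142 CPM in siTP63b and 0.696, 0.723 and 0.734 in siGRHL2a, that is 18, 2 and 4 counts against 24 in each library. Its log2FC of -1.39 (adjusted p = 0.0115) lost significance without siTP63b replicate 2 (-0.93, adjusted p = 0.097) or replicate 3 (-1.09, adjusted p = 0.068). A gene that overlaps WNT11 on the other strand, ENSG00000254933, had 39.1% as many counts and a log2FC of -1.60, and how far they share reads was not tested.

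WNT10B was the ligand gene that passed both thresholds between siTP63b and siSOX2b. It had 0.783, 0.748 and 1.74 CPM in siTP63b and 1.53, 1.85 and 2.61 in siSOX2b, and the groups overlapped. The log2FC was -0.86 (standard error 0.30, adjusted p = 0.0304), and the adjusted p was 0.137, 0.145 and 0.155 without siTP63b replicate 1, siTP63b replicate 2 and siSOX2b replicate 3. WNT5A had 219 ± 3.76 CPM in siTP63b against 162 ± 5.53 in siSOX2b and 169.8 ± 7.93 in siGRHL2a, at log2FC of 0.44 and 0.36 (adjusted p = 1.1e-08 and 3.7e-07) that were below the size required of a DEG. WNT7B had log2FC of 0.13, -0.096 and -0.23 in siTP63b against siSOX2b, siTP63b against siGRHL2a and siSOX2b against siGRHL2a, and WNT10A had 0.021, -0.36 and -0.38. For WNT9A, lower in siKLF5b, the same 3 values were -0.28, -0.63 and -0.35. PORCN, needed for secretion of the ligands, had 7.87 ± 2.29 CPM in siTP63b, 6.58 ± 1.39 in siSOX2b and 9.64 ± 1.49 in siGRHL2a, and none of its differences passed both thresholds.

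**Figure D3:**
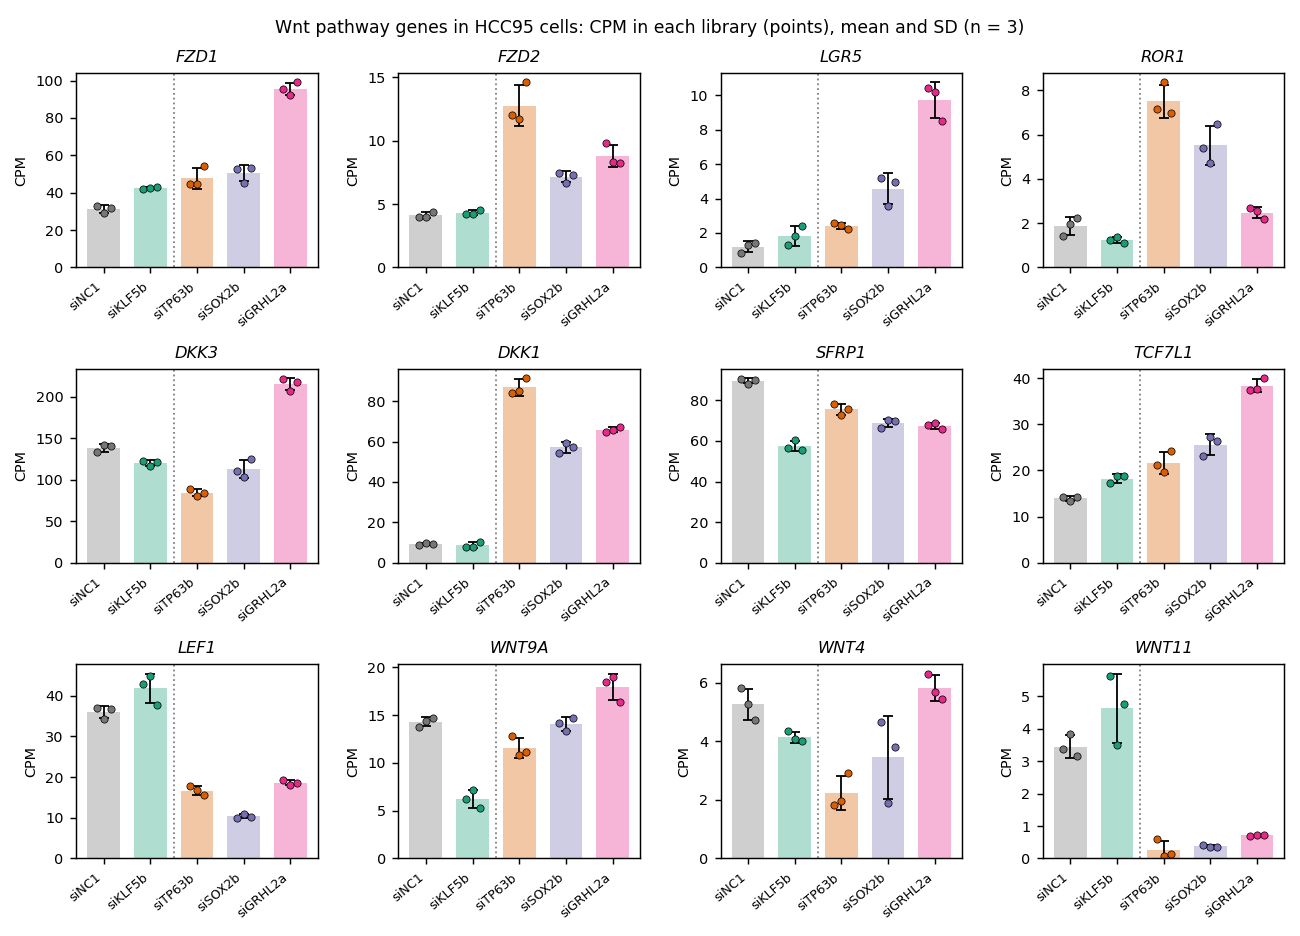
CPM of 12 Wnt genes, a panel each, in the 5 groups: points are libraries, bars the mean and whiskers the SD of 3 libraries, and a dotted line parts the column sets, with siNC1 and siKLF5b on its left side. FZD1 and DKK3 lie higher in all 3 siGRHL2a libraries than in the other 6 of that set, and ROR1 lies lower.

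Among FZD receptors FZD1, FZD2 and FZD10 passed both thresholds in some comparison within this set. FZD1 (ENSG00000157240.4, chromosome 7 from 91264433 to 91271326, plus strand), whose promoter is printed above, had 44.4, 44.7 and 54.1 CPM in siTP63b, 52.9, 45.4 and 53.2 in siSOX2b and 95.5, 92.1 and 99.0 in siGRHL2a. The siGRHL2a libraries stood well above the 6 others, which overlapped. The log2FC was -1.0 for siTP63b against siGRHL2a (standard error 0.069, adjusted p = 9.4e-13) and -0.92 for siSOX2b against siGRHL2a (standard error 0.069, adjusted p = 1.6e-11). No other listed gene overlaps FZD1, and it was a DEG under every alternative. FZD2 went another way, with 12, 11.7 and 14.6 CPM in siTP63b, 7.49, 6.70 and 7.30 in siSOX2b and 9.83, 8.32 and 8.26 in siGRHL2a. All siTP63b libraries were above the 6 others. The log2FC against siSOX2b was 0.84 (standard error 0.11, adjusted p = 7.4e-07), or 0.73 without siTP63b replicate 3, and against siGRHL2a it was 0.54 (adjusted p = 3.7e-04). FZD10 was low in this set, with 0.848, 0.884 and 1.07 CPM in siTP63b and 2.26, 1.75 and 1.65 in siGRHL2a (log2FC -1.02, standard error 0.22, adjusted p = 5.4e-04). The most abundant receptor, FZD6, had log2FC of -0.23, -0.15 and 0.079 in the 3 comparisons, and FZD3 had 0.10, 0.31 and 0.21. FZD5 had -0.70 for siTP63b against siSOX2b (adjusted p = 4.9e-07).

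Of the co-receptors, ROR1 alone passed both thresholds, and in the direction opposite to FZD1. ROR1 (ENSG00000185483.13, chromosome 1 from 63774017 to 64181498, plus strand), a receptor tyrosine kinase-like protein that binds WNT5A, had 7.18, 8.36 and 6.98 CPM in siTP63b, 5.38, 4.73 and 6.46 in siSOX2b and 2.67, 2.53 and 2.2 in siGRHL2a. The 3 groups did not overlap. The log2FC was 1.60 for siTP63b against siGRHL2a (standard error 0.16, adjusted p = 2.1e-09), 1.15 for siSOX2b against siGRHL2a (standard error 0.16, adjusted p = 2.5e-06) and 0.45 for siTP63b against siSOX2b (adjusted p = 0.0193). ROR1-AS1 on the other strand had 45% as many counts and log2FC of 1.34 and 0.76 in the first 2 of these. The other co-receptor genes had much smaller differences: LRP5 had log2FC of -0.075, -0.049 and 0.026, LRP6, overlapped by BCL2L14 with 92.6% as many counts, -0.10, -0.014 and 0.090, and ROR2 0.19, -0.21 and -0.40, in the order siTP63b against siSOX2b, siTP63b against siGRHL2a and siSOX2b against siGRHL2a. In siKLF5b against siNC1 the values of LRP5, LRP6 and ROR2 were -0.17, 0.051 and -0.25, and that of ROR1 was -0.59.

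LGR5, an R-spondin receptor known as a stem cell marker and Wnt target in the intestine, had the largest absolute log2FC of the 48 tested genes between siTP63b and siGRHL2a. LGR5 (ENSG00000139292.13, chromosome 12 from 71439798 to 71586310, plus strand) had 2.55, 2.45 and 2.21 CPM in siTP63b, 5.20, 3.55 and 4.95 in siSOX2b and 10.4, 10.2 and 8.50 in siGRHL2a. The 3 groups did not overlap and stood in that order. The log2FC was -2.01 for siTP63b against siGRHL2a (standard error 0.17, adjusted p = 1.1e-10), -1.09 for siSOX2b against siGRHL2a (standard error 0.16, adjusted p = 5.3e-06) and -0.92 for siTP63b against siSOX2b (standard error 0.18, adjusted p = 2.1e-04). Each of these was kept under every alternative, but the alternatives do not address shared reads. Genes overlapping LGR5 together had 11.6% as many counts. TSPAN8, which had the most of these (6.6%), had log2FC of -1.34, -0.53 and -0.81 in the same order of comparisons. How far they share reads was not tested. LGR4, the most abundant LGR gene, stood in the reverse order to LGR5, with 75.7 ± 1.83 CPM in siTP63b, 62.1 ± 3.23 in siSOX2b and 51.5 ± 1.48 in siGRHL2a. Its log2FC of 0.56 for siTP63b against siGRHL2a (adjusted p = 2.3e-09) was below the size required. RNF43 and ZNRF3, the ligases restrained by R-spondin and LGR proteins, had log2FC between -0.18 and 0.16 in all 4 comparisons, and the genes overlapping RNF43 had 359% as many counts.

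The secreted inhibitor DKK3, a divergent member of the DKK family, gave the smallest adjusted p of the 55 genes. DKK3 (ENSG00000050165.19, chromosome 11 from 11956207 to 12009769, minus strand) had 88.8, 80.2 and 84.0 CPM in siTP63b, 111, 103 and 125 in siSOX2b and 221, 207 and 218 in siGRHL2a. The groups did not overlap. The log2FC was -1.35 for siTP63b against siGRHL2a (standard error 0.057, adjusted p = 1.3e-17), -0.93 for siSOX2b against siGRHL2a (standard error 0.056, adjusted p = 9.9e-14) and -0.42 for siTP63b against siSOX2b (adjusted p = 6.7e-07). USP47, which overlaps DKK3 on the other strand and had 76.5% as many counts, had log2FC of -0.0056, -0.090 and 0.084. SFRP5 had 0.326, 0.0680 and 0.427 CPM in siTP63b and 0.464, 0.844 and 0.795 in siGRHL2a, that is 10, 2 and 12 counts against 16, 28 and 26. Its log2FC of -1.34 (adjusted p = 0.0358) was no longer past the threshold without siTP63b replicate 1 (adjusted p = 0.0563), siTP63b replicate 2 (0.196), siGRHL2a replicate 2 (0.115) or siGRHL2a replicate 3 (0.104). DKK1, an antagonist of LRP5 and LRP6, had 86.8 ± 4.04 CPM in siTP63b, 57.1 ± 2.57 in siSOX2b and 65.8 ± 1.30 in siGRHL2a. Its log2FC of 0.60 and 0.40 for siTP63b against siSOX2b and siGRHL2a (adjusted p = 7.2e-09 and 1.2e-05) were below the size required, and the overlapping PRKG1-AS1 had 31.4% as many counts.

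Among the nuclear factors TCF7L1 and LEF1 each passed both thresholds in 1 comparison. TCF7L1 (ENSG00000152284.5, chromosome 2 from 85133392 to 85310387, plus strand) had 21.1, 19.6 and 24.2 CPM in siTP63b, 23.1, 27.3 and 26.4 in siSOX2b and 37.5, 37.6 and 40 in siGRHL2a. As for FZD1, siGRHL2a stood above the 6 others, which overlapped. The log2FC was -0.82 for siTP63b against siGRHL2a (standard error 0.080, adjusted p = 1.4e-09) and fell just short of the size required without siTP63b replicate 2 (-0.75). For siSOX2b against siGRHL2a it was -0.58 (adjusted p = 1.4e-06). LEF1 (ENSG00000138795.10, chromosome 4 from 108047545 to 108168956, minus strand) instead was low in siSOX2b, with 9.97, 11 and 10.2 CPM against 17.8, 16.8 and 15.5 in siTP63b and 19.3, 18.1 and 18.5 in siGRHL2a. The siSOX2b libraries lay below the 6 others. The log2FC was -0.84 for siSOX2b against siGRHL2a (standard error 0.084, adjusted p = 5.0e-09) and 0.68 for siTP63b against siSOX2b (adjusted p = 1.6e-07), and LEF1-AS1 on the other strand, with 26.2% as many counts, had -0.73 and 0.42. TCF7L2 had log2FC of 0.47, 0.28 and -0.19 in siTP63b against siSOX2b, siTP63b against siGRHL2a and siSOX2b against siGRHL2a. TCF7 had 0.022, -0.16 and -0.18, but SKP1, which overlaps it, had 5.87e+03% as many counts.

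AXIN2, often read as a sign of beta-catenin activity, was low, with 4 to 29 counts in any library. It had 0.587, 0.340 and 0.783 CPM in siTP63b, 0.428, 0.182 and 0.442 in siSOX2b and 0.348, 0.181 and 0.122 in siGRHL2a, the last being 12, 6 and 4 counts. The siTP63b and siGRHL2a libraries overlapped. The log2FC was 1.36 (standard error 0.47, adjusted p = 0.0303), and the adjusted p was 0.0646, 0.134, 0.0912 and 0.125 without siTP63b replicate 1, siTP63b replicate 3, siGRHL2a replicate 2 and siGRHL2a replicate 3. An overlapping gene on the same strand, ENSG00000266076, had 94.1% as many counts and a log2FC of 1.22. AXIN1 had log2FC of -0.33, -0.10 and 0.23, NKD1 -0.43, -0.41 and 0.020 and NKD2 -0.61, -1.19 and -0.58 in siTP63b against siSOX2b, siTP63b against siGRHL2a and siSOX2b against siGRHL2a, and none of these passed both thresholds. In siKLF5b against siNC1, AXIN1, AXIN2 and NKD2 had 0.049, 0.28 and 0.47.

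Counting ran over whole gene spans, so reads of overlapping genes may be shared. Another listed gene overlapped 29 of the 55 members, and for 16 the overlapping genes together had over 20% as many counts as the member. Of the members that passed both thresholds, FZD1, FZD2, FZD10, WNT3A, WNT6, WNT10B and SFRP5 were overlapped by none, and the overlapping genes of WNT9A and TCF7L1 had under 1% as many counts. The sources used here do not say whether the counting used strand.

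**Figure D4:**
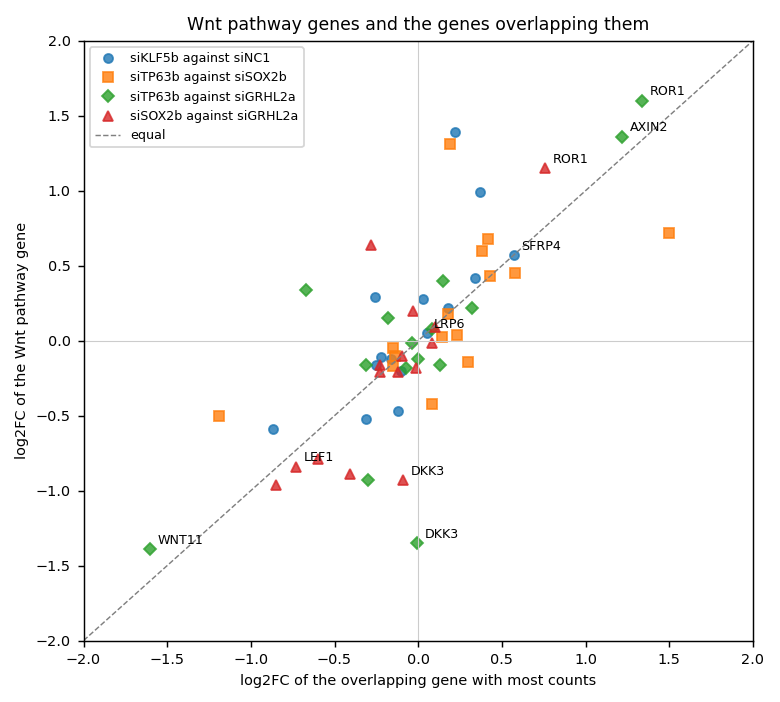
Log2FC of a member (y axis) against that of the gene with most counts among those overlapping it (x axis), for 15 members whose overlapping genes hold over 20% as many counts, with a symbol for each of the 4 comparisons and a dashed line where both are equal. DKK3 lies far from that line at -1.35 and -0.0056 for USP47 in siTP63b against siGRHL2a, while SFRP4 and EPDR1 share 0.57 in siKLF5b.

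Some members differed far more between the column sets than within them, and there the set and the knockdown cannot be told apart. DKK1 had 9.29 ± 0.353 CPM in siNC1 and 8.70 ± 1.46 in siKLF5b, against 57.1 to 86.8 CPM as group means in the other set. WNT11 had 3.45 ± 0.355 and 4.63 ± 1.07 CPM in siNC1 and siKLF5b, against group means of 0.266 to 0.718. LEF1 had group means of 36.0 and 41.8 CPM in siNC1 and siKLF5b, against 10.4 to 18.6. No test was made between the sets.

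Other genes of the pathway were read from 4 lists, without checks under the alternatives. Their counts stand beside the shares of all genes tested that were DEGs in either direction, 3.26% in siKLF5b against siNC1, 6.70% in siTP63b against siSOX2b, 5.39% in siTP63b against siGRHL2a and 3.32% in siSOX2b against siGRHL2a. Of 31 core genes of the beta-catenin branch, 0 were higher and 1 lower in siKLF5b (3.23%), namely AMER1, which recruits the destruction complex to the membrane (log2FC -0.76, adjusted p = 1.1e-06). The core gene higher in siTP63b was TLE4, a corepressor of TCF factors, with 77.8 ± 3.23 CPM against 18.5 ± 0.649 in siSOX2b and 24.0 ± 2.94 in siGRHL2a (log2FC 2.07 and 1.69, adjusted p = 3.8e-19 and 2.4e-17), or 3.23% of the list in each comparison. Between siSOX2b and siGRHL2a 0 of the 31 were DEGs by edgeR's test, with 13 at an unadjusted p below 0.05. The median log2FC of the core list was -0.065 in siKLF5b and 0.034, 0.071 and 0.039 in the comparisons of siTP63b with siSOX2b, siTP63b with siGRHL2a and siSOX2b with siGRHL2a.

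Of 24 secretion and extracellular regulators outside the set of 55, 16 were tested. In siTP63b, 1 was higher and 3 lower than in siGRHL2a, which is 4 of 16: SOSTDC1, an inhibitor of Wnt and BMP signalling, was higher (log2FC 1.18, adjusted p = 2.2e-12), and the inhibitor gene APCDD1 (-1.0, adjusted p = 9.8e-06), the glypican gene GPC3 (-0.78, adjusted p = 2.8e-04) and the Wnt protease gene TRABD2B (-1.06, adjusted p = 0.0167) were lower. Against siSOX2b, SOSTDC1 (1.30) and the LRP antagonist gene SOST (1.55) were higher in siTP63b (12.5% of 16). SOST was lower in siSOX2b than in siGRHL2a (-1.76), and TRABD2B was lower in siKLF5b than in siNC1 (-1.39, adjusted p = 0.0065), each the only DEG of the list in its comparison (6.25%). TRABD2B was low, with 0.494 ± 0.0680 CPM in siKLF5b and 1.30 ± 0.406 in siNC1. The medians of this list were 0.023, -0.11, -0.29 and -0.21 for siKLF5b against siNC1, siTP63b against siSOX2b, siTP63b against siGRHL2a and siSOX2b against siGRHL2a.

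All 21 genes of planar cell polarity were tested. FUZ was a DEG in siKLF5b (log2FC 1.04, adjusted p = 0.0491) and DAAM2 in siTP63b against siSOX2b (1.08, adjusted p = 0.0493), each 4.76% of the list. Both were low, FUZ with 1.28 ± 0.458 CPM in siKLF5b and 0.611 ± 0.109 in siNC1, and DAAM2 with 1.05 ± 0.504 in siTP63b and 0.475 ± 0.291 in siSOX2b. In the 2 comparisons with siGRHL2a edgeR's test called 0, where 10 and 8 had an unadjusted p below 0.05. Among 17 genes often cited as targets of beta-catenin and TCF, CCND1, which encodes cyclin D1, had 413 ± 9.40 CPM in siKLF5b and 1167 ± 1.15 in siNC1 (log2FC -1.5, adjusted p = 1.7e-21). EPHB3, an ephrin receptor gene, was also lower in siKLF5b (-1.16, adjusted p = 3.3e-10), and lower in siTP63b and siSOX2b than in siGRHL2a (-0.76 and -0.78). BMP4 was higher in siTP63b than in siSOX2b and siGRHL2a (0.86 and 0.90). In the order siKLF5b against siNC1, siTP63b against siSOX2b, siTP63b against siGRHL2a and siSOX2b against siGRHL2a, 0, 2, 1 and 1 of the 17 were higher and 2, 1, 1 and 2 lower, or 11.8%, 17.6%, 11.8% and 17.6% in all, with medians of -0.018, 0.017, 0.064 and -0.043, and the DEGs of this list moved in both directions in each of the last 3.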

How the data were processed

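RNA-seq counts of 15 HCC95 libraries in 5 groups of 3 were used. Per the labels and the study's methods, the authors mapped read pairs to hg38 (HISAT2 2.2.1), kept unique alignments and summed them per Gencode gene (featureCounts 2.0.1). They deposited raw counts, which carry no normalization. The counted length of all 61544 genes was the whole span, so intronic reads were counted. Whether strand was used, and whether reads or fragments were counted, is not given in the sources used here. All 15 columns were matched to libraries by name.

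The tests were run with edgeR 4.0.16 in R 4.3.3 (TMM, the filterByExpr filter by group, 1 quasi-likelihood fit of 15 libraries), with limma 3.58.1 loaded by edgeR. Benjamini-Hochberg adjustment ran over the 25108 genes tested. A DEG needed both an absolute log2FC above 0.75 and an adjusted p below 0.05. The steps were tested on simulated counts. Differences between replicates exceeded the noise of independent counts. Chi-square per gene was 2.04 to 4.34 in siNC1 and siKLF5b and 4.95 to 8.1 in siTP63b, siSOX2b and siGRHL2a. If both mates of a pair were counted in the latter groups, counting noise is itself larger there, which was not tested. Exon lengths came from Gencode, whose spans were the same for all 55 members.

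Members and the other gene lists were chosen with earlier results of these data known. Values are given for each member that was a DEG in any comparison, for the receptors, regulators and nuclear factors named whether or not they changed, and for the 3 ligand and 3 FZD genes with the highest mean CPM. Full statistics are for members averaging 20 counts or more. Exceptions are AXIN2, WNT11 and SFRP5 in siTP63b against siGRHL2a, which averaged 12.0, 16.0 and 15.7 counts. Their log2FC and adjusted p are given, with a standard error for AXIN2. Other lists are given by counts, medians and up to 3 members, beside DEGs named after their values were seen. Alternatives were RLE size factors, no low-count filter, at least 10 counts in every library compared, libraries of the same column set alone, halved counts in 9 libraries, DESeq2 1.42.0, no limit on log2FC, the replicate number as a block, and each library left out in turn. The DEG thresholds are the study's.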

Additional observations from a re-analysis of the deposited data

How the results depend on the processing

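Of the 23 differences past both thresholds, 15 were kept under all 14 alternatives tried for their comparison and 0 reversed. The alternative with no limit on log2FC is the main fit under a looser rule, so it could not lose or reverse any of them. Those lost under some were WNT10B, FZD2, WNT3A, TCF7L1, SFRP5, WNT11, AXIN2 and, for siSOX2b against siGRHL2a, WNT4. RLE size factors and DESeq2 each lost WNT3A and WNT4, DESeq2 also WNT10B and SFRP5, halved counts lost WNT3A, and the libraries of 1 column set alone lost SFRP5, WNT11 and AXIN2; the cause was not tested.

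With no limit on log2FC the members higher and lower were 4 and 9 in siKLF5b against siNC1, 10 and 12 in siTP63b against siSOX2b, 10 and 16 in siTP63b against siGRHL2a, and 5 and 13 in siSOX2b against siGRHL2a, since that alternative drops a threshold. With the libraries of 1 column set alone, 1 member was higher in siKLF5b (DKK2), and 1 in siTP63b than in siGRHL2a. DESeq2 gave 1 lower in siTP63b than in siSOX2b, and at least 10 counts gave 1 higher in siTP63b than in siGRHL2a. When each library was left out, the counts of higher and lower members ranged over 0 to 1 and 2 to 3 in siKLF5b against siNC1, 0 to 2 and 1 to 5 in siTP63b against siSOX2b, 1 to 2 and 6 to 10 in siTP63b against siGRHL2a, and 1 to 2 and 4 to 6 in siSOX2b against siGRHL2a.

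For GRHL2 in siSOX2b against siGRHL2a, the log2FC was 0.14 with no low-count filter (adjusted p = 0.105 by edgeR) and 0.14 with 1 column set alone (adjusted p = 0.0858 by edgeR), and it ranged from 0.11 to 0.18 with each library left out. The same ranges were -0.68 to -0.58 for KLF5, -0.98 to -0.90 for TP63 and 1.58 to 1.81 for SOX2.

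Deviations of libraries with the same replicate number were hardly correlated (correlations of -0.031 to 0.034), which does not settle whether the numbers pair samples. With the number as a block the counts higher and lower were 0 and 2, 1 and 2, 2 and 10, and 1 and 5, as without it; in siSOX2b against siGRHL2a each library correlated best with its own number, a hint from the data and not the design. AXIN2, WNT11 and SFRP5 had a mean of under 20 counts in siTP63b and siGRHL2a, and if both mates of a pair were counted in the 9 libraries, their counting error is larger than the counts show.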
